A study of Drosophila melanogaster with 10 samples.

Results

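The element described here is gypsy, an endogenous retrovirus of Drosophila melanogaster, followed through 10 small RNA libraries from ovarian somatic cells (OSCs), a cell line derived from the somatic follicle cells of the fly ovary. It was chosen by name, as all positions that the 2 deposited coverage tables assign to gypsy, and not by any measured value. It is 1 of the 122 transposons in the tables, and its consensus sequence is 7469 nt long. Positions below count from 1 at the 5′ end of that consensus and are not genome coordinates.

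gypsy is built like a retrovirus. A pair of identical long terminal repeats (LTRs) flanks genes for the capsid (gag), the replication enzymes (pol) and an envelope protein (env), and env is translated from a spliced RNA that holds the 3′ part of the element. In the follicle cells of the ovary it is held silent by piRNAs, small RNAs that guide the protein Piwi to matching nascent transcripts. Most of them are cut from one long transcript of the flamenco cluster on the X chromosome, in which gypsy-family insertions mostly lie inverted, so that the piRNAs are antisense to the transposon RNA. Armitage (Armi), an RNA helicase, is needed to process such precursors into piRNAs in these cells, and Panoramix (Panx) acts downstream of Piwi in silencing chromatin. Sense piRNAs, in contrast, have the sequence of the transposon RNA itself. The tables mark no reading frames, so parts of gypsy are given here by position alone.

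Argonaute-bound small RNAs were measured in 2 experiments, each with its own control. In the first, OSCs received an siRNA against luciferase (siLuc, 3 libraries) or against armi (siArmi, 3 libraries), with a second transfection at 48 h and harvest at 96 h. In the second, clonal OSCs in which UAS sites, the DNA sequence that Gal4 binds, had been placed before the flamenco promoter on each allele received Gal4 alone (2 libraries, harvest day not given for each) or Gal4 fused to the disordered region of Panx (Gal4-Panx-IDR, 1 library from day 6 and 1 from day 7, used as replicates 1 and 2), which brings the silencing machinery to flamenco. All 4 groups derive from OSCs, and the tethering groups from clonal cells, without a statement of which clone each library came from.

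Several features limit the groups. By the methods and the treatment labels, the Panx-IDR cells were sorted for reduced GFP and the Gal4 cells were not, whereas the descriptions name sorting for all 4 tethering libraries, so sorting and flamenco silencing cannot be told apart here. Adaptors also differed between the 2 experiments. The tables hold transposon coverage only, so neither armi mRNA nor flamenco RNA nor cell type markers were read. The labels do not say whether replicates came from separate cultures, and p-values therefore measure the spread between these libraries, which may be technical. Replicates of each group differed by more than sampling noise.

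Each value is a coverage, the number of 24 to 35 nt reads over a position, scaled to 1000000 miRNA reads. Reads of this size are called piRNAs here, and whether all of them are was not tested. Values rise in steps of 0.5 read, which gives the miRNA reads behind each library: 1297626 to 1799370 in siLuc, 586560 to 875165 in siArmi, 87066 and 110492 in Gal4, and 151205 and 117444 in Gal4-Panx-IDR. The tethering libraries are therefore the shallowest. Scaling to miRNAs ties every value to the miRNA content of the cells. In pooled cells, fewer cells with piRNAs and fewer piRNAs per cell cannot be told apart.

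In control cells almost all gypsy piRNAs were antisense, and gypsy was among the most heavily covered elements. Its mean antisense coverage per nt was 3083, 2947 and 2151 in the siLuc libraries and 5461 and 5590 in the Gal4 libraries. The siLuc mean of 2727 ± 504 (SD, n = 3) ranked at position 4 of 122, and gypsy held 5.45% of all antisense transposon coverage there. Sense coverage was 9.53, 9.78 and 9.34 in siLuc and 11.7 and 12.4 in Gal4, so that 99.6% and 99.8% of gypsy coverage was antisense.

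Antisense coverage was higher in the Gal4 than in the siLuc libraries without overlap. The difference on the log2(coverage + 1) scale was 1.04 ± 0.26 (SE, limma with Benjamini-Hochberg adjustment, adjusted p = 0.000583), among 75.4% of 69 elements that were higher. It was 0.24 (adjusted p = 0.0669) with median-ratio scaling and 1.02 (adjusted p = 0.0744) without Gal4 replicate 2. Sense coverage differed by 0.31 ± 0.22 (adjusted p = 0.174), which did not pass the test, while 82.2% of 90 elements were higher and 2.22% lower. The sense value turned to −0.28 with coverage scaled to all transposon coverage and to −0.59 with median-ratio scaling. Clone, adaptor and experiment differ between the same libraries and cannot be told apart, and each treatment is therefore read only against its own control.

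On Armi depletion nearly all antisense gypsy piRNAs were lost. Coverage was 78.2, 76.7 and 79.2 in the siArmi libraries, each far below every siLuc library. The mean of 78.0 ± 1.23 (SD, n = 3) was 2.86% of siLuc, a 34.9-fold decrease. On the log2 scale coverage fell by 5.09 ± 0.20 (SE, limma adjusted p = 5.82e-64). All 50 elements tested fell, 100% of them, with a median of −4.30, and the decrease of gypsy was the largest of the 50, by less than its SE, since the next element, an LTR retrotransposon whose name is a number, was at −5.05. With coverage scaled to all transposon coverage gypsy was at −0.75 (adjusted p = 1.28e-05), and with median-ratio scaling at −0.65 (adjusted p = 1.06e-05), so that it lost more than the middle element under both. In each fit over elements without such scaling and with all libraries of the comparison, at the settings used for the reported values, limma tested against a spread shared by all elements, so these adjusted p-values do not measure how firmly gypsy alone is replicated.

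On silencing of flamenco a smaller part of the antisense piRNAs was lost. Coverage was 1877 on day 6 and 2344 on day 7, against 5461 and 5590 with Gal4 alone. The groups did not overlap. The mean of 2110 ± 330 (SD, n = 2) was 38.2% of Gal4, a 2.62-fold decrease. On the log2 scale coverage fell by 1.40 ± 0.22 (SE, limma adjusted p = 4.56e-09), where 53.4% of 73 elements fell, 8.22% rose and the median was −0.57. In the order of decreases gypsy stood at position 24 of 73. The loss on flamenco silencing was smaller than that on Armi depletion by 3.69 ± 0.28 log2 units (limma over all 10 libraries, adjusted p = 4.02e-32), as it was for 100% of the 65 elements tested. This difference was 0.02 (adjusted p = 0.81) with coverage scaled to all transposon coverage and 0.08 (adjusted p = 0.628) with median-ratio scaling, both of which take out the change shared by the elements.

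**Figure D1:**
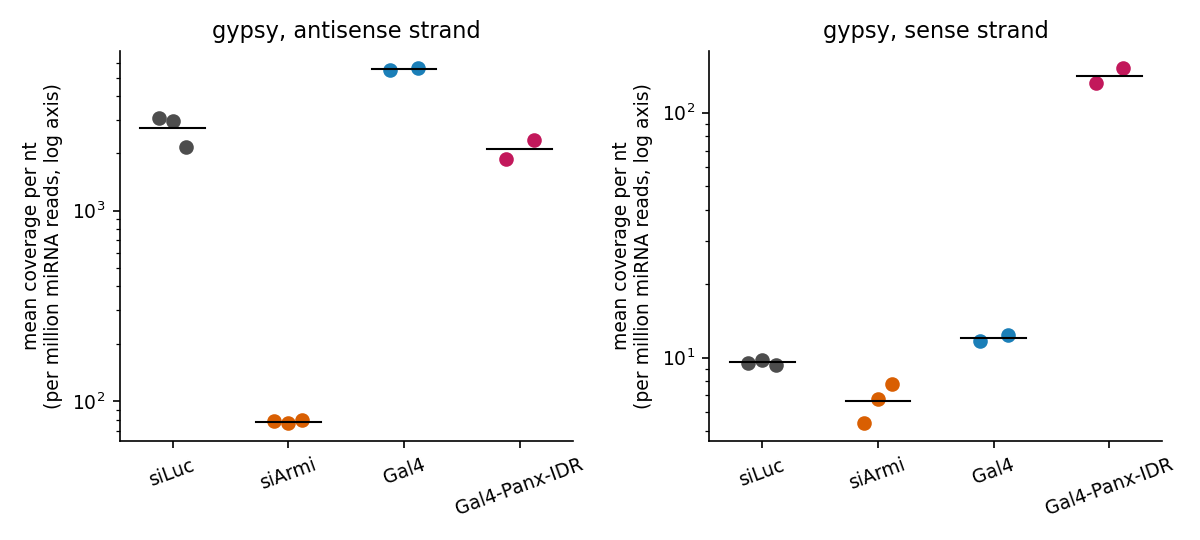
Mean gypsy coverage per nt (per 1000000 miRNA reads, log axes) in each library, antisense on the left and sense on the right. Points are libraries and lines are group means (n = 3, 3, 2 and 2). Antisense coverage is lowest in siArmi at 76.7 to 79.2, and sense coverage is highest in Gal4-Panx-IDR at 131.9 and 151.4.

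The sense strand behaved differently in the 2 treatments. On Armi depletion sense coverage was 5.41, 6.80 and 7.80 per nt against 9.34 to 9.78 in siLuc, without overlap, which is 69.8% of the control. gypsy thereby went from position 39 of 122 in sense coverage to position 9, while the share of its coverage that was sense went from 0.357% to 7.86%. The log2 change was −0.47 ± 0.17 (SE, limma adjusted p = 0.00498), among 98.5% of 67 elements that fell with a median of −3.13, and it turned to 3.31 with coverage scaled to all transposon coverage and to 3.39 with median-ratio scaling. Only 1 of the 67 elements stood above gypsy in this order. The call was lost without siArmi replicate 1 (−0.35, adjusted p = 0.0989) and with the median over positions (−0.36, adjusted p = 0.0962).

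On flamenco silencing sense coverage rose strongly. It was 131.9 on day 6 and 151.4 on day 7 against 11.7 and 12.4 with Gal4, a difference of 11.8-fold with no overlap. The log2 change was 3.45 ± 0.20 (SE, limma adjusted p = 3.41e-38), while 17.9% of 95 elements rose and the median was −0.13. gypsy had the 4th largest increase. At least 216 sense reads stood behind the value in the Gal4 library with the fewest, and at least 3794 in Gal4-Panx-IDR. With the median over positions, which was 0 in Gal4 replicate 1, the change was 4.06 (adjusted p = 0.0917). The changes in the 2 treatments differed by 3.92 ± 0.25 log2 units (limma over all 10 libraries, adjusted p = 2.21e-45), as they did for 100% of 88 elements, whereas this difference was 0.34 (adjusted p = 0.267) with coverage scaled to all transposon coverage and −0.13 (adjusted p = 0.695) with median-ratio scaling.

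The LTRs could be found from the coverage itself. A read that matched both ends was given a weight of 0.5 at each, so both repeats carry the same values. Coverage at nt 38 to 450 was equal at 413 positions to that at the other end, within a relative tolerance of 0.0001 in all libraries, which set the repeats at nt 1 to 482 and nt 6988 to 7469. Between them lies an internal part of 6505 nt. LTR values are means over both ends and cannot show which end a read came from.

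Along the consensus, antisense piRNAs of control cells covered gypsy nearly without interruption but unevenly. The 3 windows of 100 nt with the most coverage in siLuc lay at nt 6901 to 7000 with 6053 ± 1000 (SD, n = 3), nt 5801 to 5900 with 5530 ± 876 and nt 6801 to 6900 with 5116 ± 949. All 3 lie near the 3′ end of the element, the first of them across the border of the 3′ LTR and the others before it. Peaks of more than 3 times the median per position were found at nt 5854 to 5863, nt 6901 to 6924 and nt 6962 to 6978, with means of 8405, 8850 and 8863.

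The lowest antisense coverage lay behind the 5′ LTR. Of 10 equal parts of the internal sequence the first, nt 483 to 1132, had 1200 ± 213 in siLuc and 2815 ± 153 (SD, n = 2) in Gal4, the lowest of the 10 parts in both groups. Positions below 10% of the gypsy mean made up 1.77% of the consensus in siLuc, or 132 positions, and 0.964% in Gal4. The longest of these stretches were nt 830 to 870, nt 770 to 801 and nt 5420 to 5443. The last of them was nearly empty on both strands. Antisense coverage there was 27.3 in siLuc and 56.2 in Gal4, and sense coverage was listed at 0 in 9 of the 10 libraries. Gaps took 5.48% of the consensus in siArmi and 0.777% in Gal4-Panx-IDR. Of the 4 groups siArmi had the fewest antisense gypsy reads, at least 9784 in its lowest library, and 23 positions had no read in any of its libraries.

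**Figure D2:**
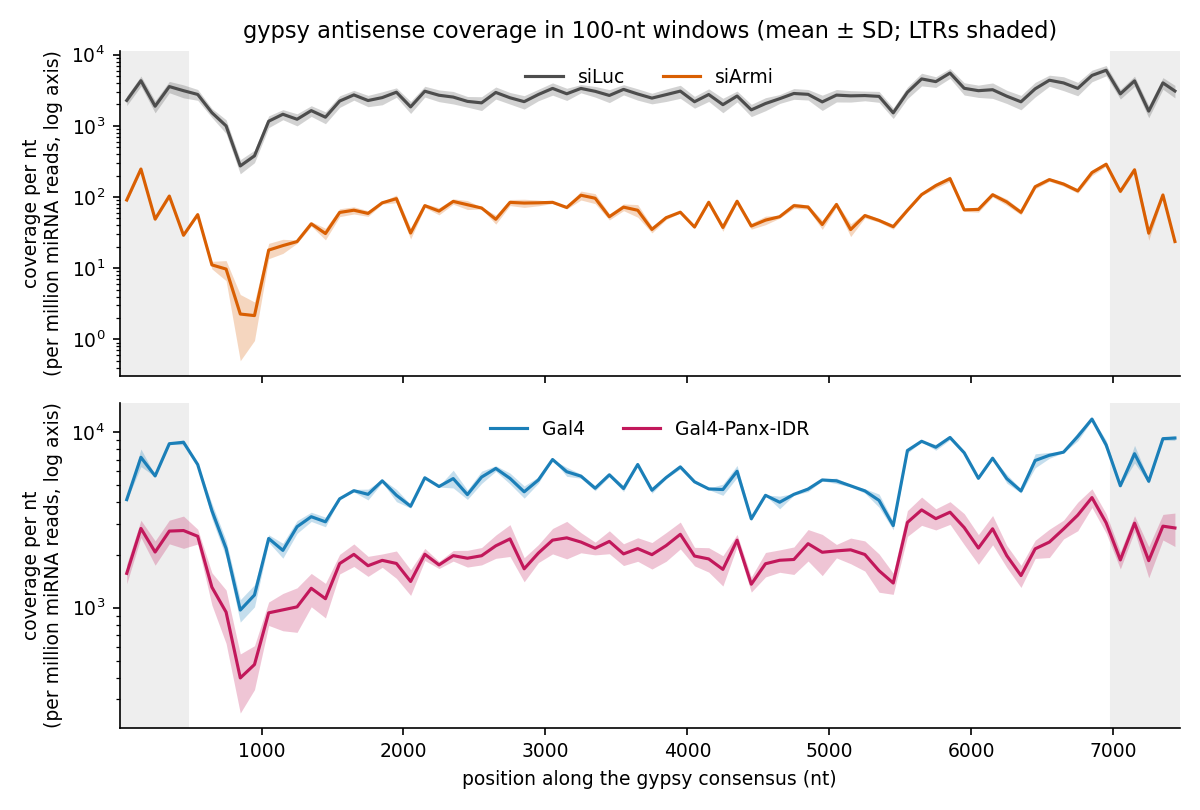
Antisense coverage along gypsy in 100-nt windows (x axis, position on the consensus in nt; y axis, coverage per nt per 1000000 miRNA reads, log axis), siLuc and siArmi above, Gal4 and Gal4-Panx-IDR below. Lines are group means, bands are SD drawn no lower than 0.5, and LTRs are shaded. All 4 profiles dip between about nt 700 and 1000 and are high at nt 5801 to 5900 and nt 6801 to 7000.

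The antisense loss reached every part of gypsy in both treatments. All 75 windows fell on Armi depletion, as did 100% of 2684 windows of all elements, with coverage left at 0.569% to 5.74% of the control, and with coverage scaled to all transposon coverage 68 of them passed as lower and by median ratios 68 as lower and 2 as higher. All 75 also fell on flamenco silencing, where 52% of 3380 windows fell and 5.77% rose, with 30.7% to 48.8% left, and 75 or 73 of them passed as lower under these scalings. No gypsy window overlapped between treated and control libraries, a count that was not made for the windows of other elements. As a fold range between windows, the share of coverage that was left thus varied more along gypsy after Armi depletion than after flamenco silencing. In percentage points it varied less.

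The antisense profile kept its shape more closely on flamenco silencing. Window coverage relative to the gypsy mean fell in 36 and rose in 18 of 75 windows on Armi depletion, where 10.8% of 3040 windows fell and 25.2% rose. On flamenco silencing 7 windows fell and 4 rose, against 5.82% and 7.64% of 3953 windows, and without the trend in limma neither direction had a call (4 lower and 1 higher at an unadjusted p of 0.05). The changes on flamenco silencing were also small, from −0.32 to 0.35 log2 units. As a description, the window profiles of Gal4 and Gal4-Panx-IDR had a Pearson r of 0.956 over 75 windows, and those of siLuc and siArmi 0.851, while replicates of a group had at least 0.977. Neighbouring windows share reads.

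The windows that lost the most on Armi depletion followed the 5′ LTR. At nt 601 to 700 coverage was 1278 to 1672 in siLuc and 9.72 to 12.4 in siArmi, which is 0.726% of the control. At nt 901 to 1000 it was 296.8 to 445 and 0.903 to 3.28, or 0.569%. The lowest siArmi value there lies under the coverage that 3 reads would give, 1.20 to 1.79 in these libraries. The last window, nt 7401 to 7469 in the LTR, was left at 0.767%. Relative to the gypsy mean these 3 windows fell by 1.89 ± 0.10, 1.88 ± 0.26 and 1.86 ± 0.07 log2 units (SE, limma adjusted p = 1.14e-06, 0.00034 and 8e-07).

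The best kept windows lay at both LTRs and just before the 3′ one. At nt 101 to 200 coverage relative to the gypsy mean was 1.56 to 1.64 in siLuc and 2.94 to 3.30 in siArmi, a log2 change of 0.98 ± 0.06 (SE, limma adjusted p = 2.1e-06). The matching window of the 3′ LTR, nt 7101 to 7200, shares these reads and rose by 0.96 ± 0.07. At nt 6901 to 7000, the window with the most coverage in siLuc, the ratio rose from 2.23 to 3.71 (0.72 ± 0.06, adjusted p = 1.3e-05). The longest stretch of windows that rose in this measure ran from nt 6401 to 7200.

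On flamenco silencing the same measure named mostly other windows. The last window, nt 7401 to 7469, was among those with the largest relative decreases in both treatments. The largest relative decreases were at nt 7401 to 7469, nt 401 to 500 and nt 6401 to 6500, from −0.32 to −0.28 log2 units. The first 2 of these cover largely the same LTR sequence and share reads. On Armi depletion nt 401 to 500 also fell in this measure, within a stretch of windows from nt 401 to 1300. The largest relative increases were at nt 4801 to 4900 (0.35), nt 5401 to 5500 (0.30) and nt 4601 to 4700 (0.29). All of these windows lost coverage in absolute terms. None of their relative changes on flamenco silencing passed without the trend in limma.

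For sense piRNAs the direction of the change differed along gypsy. In control cells the LTRs held a large share of them, 58.2% ± 4.3 (SD, n = 3) of gypsy sense coverage in siLuc and 49.1% in Gal4. The mean sense coverage of the LTRs was 45.1, 45.7 and 38.5 in siLuc against 4.26, 4.46 and 5.01 in the internal part. On Armi depletion the LTRs fell to 7.25, 7.94 and 9.73, whereas the internal part was at 5.13, 6.63 and 7.52. The LTRs were thus left at 19.3% of the control and the internal part was at 140%. The log2 ratio of LTR to internal coverage differed by −2.86 with no overlap between libraries (two-sided exact permutation test, p = 0.1, the smallest that 3 against 3 libraries allow). For antisense coverage the LTRs were left at 3.46% and the internal part at 2.76%, and the same log2 ratio differed by 0.32 (exact permutation test, p = 0.1).

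Within the internal part, the sense increase lay in its 3′ end. Of 75 windows, 25 fell and 16 rose, where 93.4% of 2730 windows of all elements fell and 1.5% rose, and with coverage scaled to all transposon coverage or by median ratios 71 or 72 of the 75 rose and none passed as lower, at an unadjusted p of 0.05 either. All 16 windows that rose lay in 1 unbroken stretch from nt 5401 to 7000. None of them overlapped between siLuc and siArmi, which was not counted for other elements. Of the 25 windows that fell, 9 lay in the LTRs, 1 on an LTR border and 15 inside, all of them before nt 3701. The 34 windows that did not pass the test lay between nt 901 and 5400. When 1 library was left out, 16% to 26.7% of the windows rose.

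Per library, mean sense coverage over nt 5401 to 7000 was 7.10, 7.02 and 10.0 in siLuc and 15.1, 19.1 and 21.8 in siArmi, which is 2.32 times the control. Each siArmi library was above each siLuc library. At least 405 reads stood behind every one of these 6 values. Over the preceding internal positions, nt 483 to 5400, the mean went from 3.52 ± 0.16 to 2.45 ± 0.50 (SD, n = 3), or 0.697 times. These stretches were set from the calls and are given as a description without a test. Antisense coverage of the same nt 5401 to 7000 was left at 0.034 times the control, and that of nt 483 to 5400 at 0.0243 times.

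The windows with the largest sense changes on Armi depletion show both directions. At nt 6801 to 6900 sense coverage was 5.30 to 10.1 in siLuc and 21.5 to 30.0 in siArmi, a log2 increase of 1.63 ± 0.29 (SE, limma adjusted p = 2.54e-07). Increases followed at nt 5901 to 6000 (1.39 ± 0.30, adjusted p = 1.31e-05) and nt 6101 to 6200 (1.34 ± 0.28, adjusted p = 8.34e-06). The largest decreases were all in the LTRs. At nt 101 to 200 coverage went from 77.3 to 94.6 in siLuc to 6.90 to 14.6 in siArmi, a fall by 3.04 ± 0.27 (adjusted p = 6.3e-19). Coverage was left at 11.9% of the control at nt 7101 to 7200 and at 14.6% at nt 7001 to 7100. Under the scalings above, no window of gypsy passed as lower on this strand.

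Over all elements, 41 sense windows rose on Armi depletion, and they came from 5 elements. mdg1, another LTR retrotransposon, had 22 of them, 32.8% of its windows tested, and gypsy had 16, or 21.3%. The 3 further elements had 1 each. With coverage scaled to all transposon coverage 395 windows of 30 elements rose and 318 fell, and by median ratios 439 of 35 elements rose and 292 fell, and gypsy had the most that rose under both, 71 and 72.

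On flamenco silencing sense coverage rose both in the LTRs and inside, and again most at the 3′ end of the internal part. LTR coverage was 44.6 and 46.9 in Gal4 and 245 and 264 in Gal4-Panx-IDR, a 5.57-fold rise, while internal coverage went from 6.79 and 7.29 to 115 and 135, a 17.7-fold rise. The log2 ratio of LTR to internal coverage differed by −1.67 (two-sided exact permutation test, p = 0.333, the smallest that 2 against 2 libraries allow). For antisense coverage it differed by −0.15 (exact permutation test, p = 0.333), with 34.9% left in the LTRs and 38.8% inside. Over nt 5401 to 7000 coverage was 11.7 and 10.1 in Gal4 and 350.9 and 415.5 in Gal4-Panx-IDR, 35.1 times the control, with 46 and 51 reads at least behind the Gal4 values. Over nt 483 to 5400 the ratio was 7.13.

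Of 75 windows, 53 rose, where 10.8% of 4092 windows of all elements rose and 6.52% fell. Of the other 22, 15 formed a stretch from nt 1101 to 2600. The count depended on the few libraries. Without Gal4 replicate 1 the share of windows that rose was 41.3%, without Gal4 replicate 2 it was 20%, and without either Gal4-Panx-IDR library it was 0%, with 35 windows higher at an unadjusted p of 0.05 in each of the last 2 fits (limma). Each of these fits assumes that the lone library of an arm varies like the other group. In 73 of the 75 windows the groups did not overlap. The share over all elements was not counted, so this cannot be read as particular to gypsy. With 2 libraries on each side, groups also separate readily by chance.

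The 3 largest increases came from windows with little sense coverage in the control. At nt 5701 to 5800 sense coverage was 0.345 and 6.61 in Gal4 and 282 and 349 in Gal4-Panx-IDR, a log2 change of 6.62 ± 0.80 (SE, limma adjusted p = 0.0036). Both Gal4 values lie under the coverage that 3 reads would give, 12.1 and 9.50. Behind them stood about 2 reads in all, at 35 nt a read, and the ratio of reads was 87.9 with a 95% counting interval of 24.1 to 730 (Clopper-Pearson). At nt 6801 to 6900 it was 4.25 and 4.34 against 333 and 352, a log2 change of 6.02 ± 0.31 (adjusted p = 0.000143), again from about 2 reads in Gal4, with a ratio of reads of 96.3 and an interval of 26.4 to 799.6. At nt 4201 to 4300 both Gal4 libraries were at 0, and Gal4-Panx-IDR had 53.6 and 82.3, at least 6.30-fold higher than the coverage of 10.8 that 3 reads per Gal4 library would give. In 28 of the 53 windows that rose, both Gal4 libraries were at or under that coverage, so the fitted size of these changes depends on the pseudocount and their order is not firm. The intervals cover counting error only. The window at nt 6801 to 6900 was among the 3 largest fitted sense increases in both treatments.

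**Figure D3:**
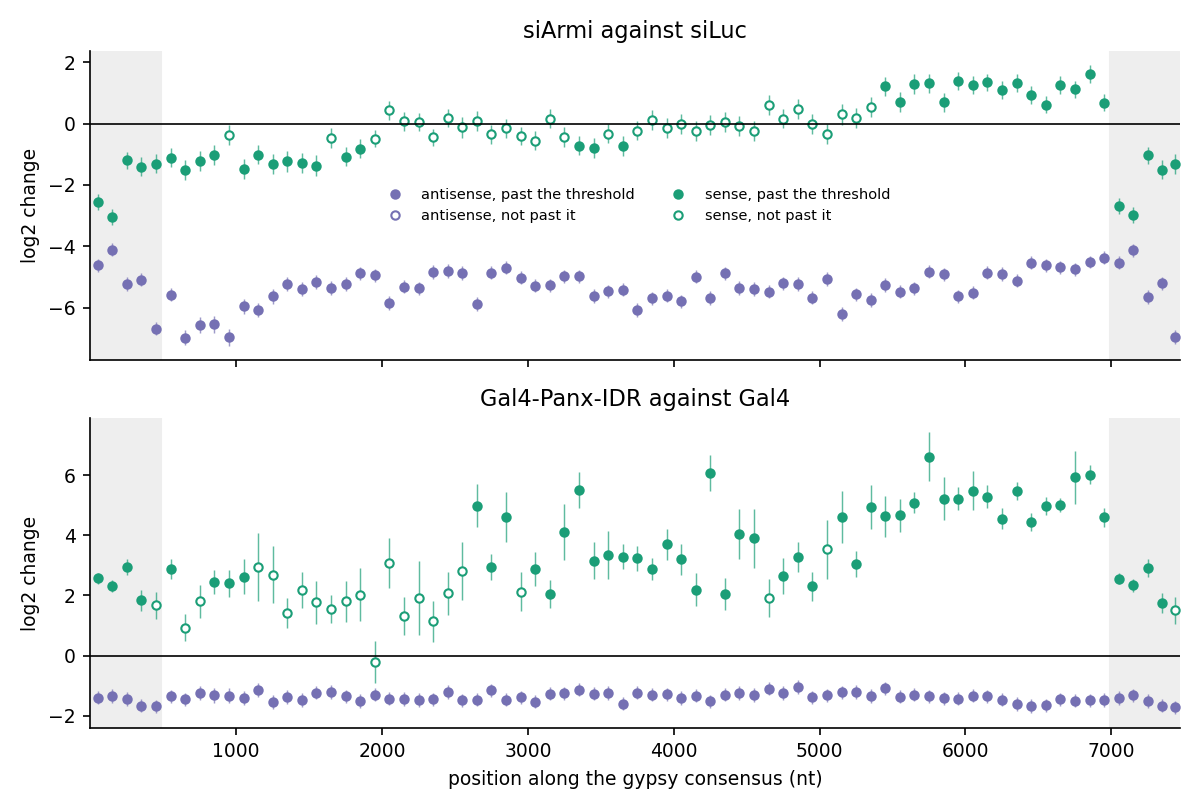
Log2 change of coverage in each 100-nt window of gypsy against its position on the consensus (nt), for siArmi against siLuc above and Gal4-Panx-IDR against Gal4 below. Filled points passed the limma test, open points did not, bars are SE and LTRs are shaded. Antisense windows fell throughout in both treatments, while sense windows rose at nt 5401 to 7000 on Armi depletion and in 53 of 75 windows on flamenco silencing.

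In both treatments a larger share of the sense coverage lay in the same stretch. The share of gypsy sense coverage at nt 5401 to 7000 was 15.96%, 15.4% and 23.0% in siLuc and 59.9%, 60.2% and 59.9% in siArmi. It was 21.5% and 17.5% in Gal4 and 57.0% and 58.8% in Gal4-Panx-IDR. All treated libraries thus lay well above all controls. For siArmi against siLuc this follows in part from the choice of the stretch, which was set from the windows that rose there. The tethering libraries did not enter those calls, but the stretch was singled out after values were seen. The LTR share fell to 16.2% in siArmi and 23.3% in Gal4-Panx-IDR. As a description over 75 windows, the sense profile of siArmi had a Pearson r of 0.939 with that of Gal4-Panx-IDR, which share no library, and of 0.267 with that of its own control, while the profiles of siLuc and Gal4 had 0.973. By rank the contrast was smaller, with a Spearman rho of 0.825, 0.601 and 0.801 for these pairs. Between the Gal4 replicates rho was only 0.564. The points share base composition and neighbouring reads, so no p is given.

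The antisense share moved less. At nt 5401 to 7000 it was 29.2% in siLuc, 34.7% in siArmi, 29.0% in Gal4 and 28.03% in Gal4-Panx-IDR. Antisense and sense profiles of the same cells had a Pearson r from 0.131 in Gal4 to 0.514 in siArmi over 75 windows.

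**Figure D4:**
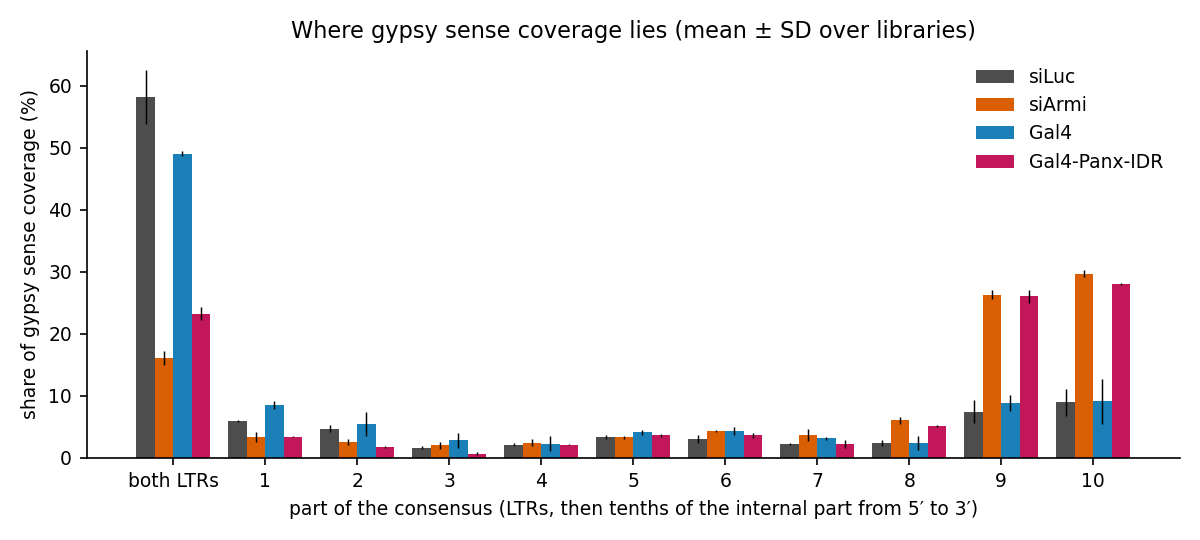
Share of gypsy sense coverage (%) in both LTRs and in each of 10 equal parts of the internal sequence from 5′ to 3′, as group means with SD over libraries. The last 2 parts, nt 5687 to 6987, hold 26.3% and 29.7% in siArmi and 26.0% and 28.04% in Gal4-Panx-IDR, against 7.44% and 8.93% in siLuc.

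Other elements related to gypsy by an env gene or by name were compared through lists drawn up with earlier results of these data known. Not all of them share its state in these cells. The paper reports that springer, a member, lacks antisense piRNAs in OSCs, and that Tirant, another, is missing from their genome. Of 13 further LTR elements in a list of env-carrying relatives of gypsy, 10 passed the limit on antisense coverage in the siRNA experiment. All 10 fell on Armi depletion (limma, as 100% of elements did), with a median of −4.33 beside −4.30 over all elements tested. With coverage scaled to all transposon coverage 4 fell and 3 rose, where 23 of 50 elements fell and 9 rose. By median ratios 3 fell and 3 rose, where 20 of 50 elements fell and 14 rose. On flamenco silencing 11 of 12 tested fell, where 53.4% of elements did, with a median of −1.58 beside −0.57. Under either scaling 9 of the 12 fell and 1 rose. Over all 73 elements 33 fell and 28 rose when scaled to all transposon coverage, and 33 fell and 29 rose by median ratios. ZAM fell the most, by 1.95, and opus was at −0.21 (adjusted p = 0.335). gypsy, at −1.40, lies within this range. The antisense coverage of gtwin, the list's most covered element in siLuc at 5686, fell by 1.45.

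On the sense strand the log2 changes of gypsy, though not its coverage, lay above those of all list members tested. Of 4 members tested all 4 fell on Armi depletion, where 98.5% of 67 elements did, with a median of −3.42 beside −3.13 over all elements. They ranged from −4.51 in springer to −1.11. Under either scaling 2 of the 4 rose. On flamenco silencing 3 of 9 rose and 1 fell, where 17.9% of 95 elements rose and 23.2% fell, with a median of 0.37 beside −0.13. When scaled to all transposon coverage 5 of the 9 rose, and by median ratios 4 rose and 1 fell. The largest increase was that of gypsy5 at 2.84. Among 11 elements whose names start with gypsy, all 7 tested fell in antisense coverage on flamenco silencing, where 53.4% of 73 elements did. They ranged from gypsy2_new at −1.37 to gypsy3_new at −2.06. All 7 fell under both scalings, where 33 of 73 elements fell under each. On Armi depletion all 7 fell in antisense coverage and all 3 tested in sense coverage, as did 100% of 50 and 98.5% of 67 elements. The medians were −4.35 and −3.94. Scaled to all transposon coverage 3 of the 7 fell and 2 rose, where 23 of 50 elements fell and 9 rose. By median ratios 2 of the 7 fell and 3 rose, where 20 of 50 fell and 14 rose. No sense change of the 3 passed under either scaling (1 at an unadjusted p of 0.05 in each, limma). In sense coverage on flamenco silencing 3 of 8 rose and 2 fell, where 17.9% of 95 elements rose and 23.2% fell. The median was 0.21, and 5 rose and 1 fell when scaled to all transposon coverage. Shares over all elements under the scalings are not given here for the sense strand.

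By the pattern over all 10 libraries, measured as the mean absolute difference of centred log2 coverage, the antisense values of the same LTR retrotransposon that fell nearly as much as gypsy on Armi depletion, a member of the first list, were most like those of gypsy (0.13), followed by Doc and F-element, both LINEs (0.15 and 0.18, against a median of 0.49 over 49 elements). For sense values Tabor, blood and again that element, all LTR retrotransposons, came closest, but less so (0.60, 0.65 and 0.81, against a median of 1.498 over 66 elements). Tabor sense coverage was 2.33 in siLuc, 0.281 in siArmi, 3.57 in Gal4 and 113.7 in Gal4-Panx-IDR.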

How the data were processed

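Argonaute-bound small RNAs of 10 OSC libraries were analysed, grouped by sample title. The authors trimmed adaptors (cutadapt), kept reads of 24 to 35 nt, aligned them with Bowtie to transposon consensus sequences, left out reads that match more than 1 consensus, and deposited the coverage signal per position and strand of 122 elements (610009 positions) per 1000000 miRNA reads. The deposited antisense coverage is a negative score, whose size was used. The versions used for these libraries are not given in the sources used here.

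Mean coverage of elements and of 100-nt windows was compared with limma 3.58.1 (R 4.3.3, trend on) as log2(coverage + 1), at a mean of at least 10 (antisense) or 1 (sense), with Benjamini-Hochberg adjustment over all elements or windows and a threshold of 0.05. Coverage is no count, so no count model was used. Named windows are the 3 most covered in siLuc and, in each window test, the 3 strongest falls and the 3 strongest rises that passed without overlap, and named elements are the 3 most like gypsy on each strand and the extremes of each list. ZAM, gtwin, mdg1 and the stretch of nt 5401 to 7000 were singled out after their values were seen where they fall outside this rule. Members, lists and tests were chosen with earlier results of these data known. Other pseudocounts (0.1, 10), filters, scalings, window sizes (50, 200 nt), fits and left-out libraries were tried.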

Additional observations from a re-analysis of the deposited data

Results flagged for a closer look

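The change of gypsy differed between the treatments on both strands, by a test of the difference itself over all 10 libraries (limma). The antisense change on flamenco silencing was 3.69 log2 units above that on Armi depletion, and the sense change was 3.92 above it. Scaled to all transposon coverage these differences were 0.02 (adjusted p = 0.81) and 0.34 (adjusted p = 0.267).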

How the results depend on the processing

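Of 322 values recomputed under an alternative setting, 271 were the same, which means the same direction and side of the threshold where there was a test, a move within the spread between replicates where there was none, and a count within 1.5 times. The scaling by median ratios takes out what the elements of a strand share. That to all transposon coverage uses both strands together, most of it antisense, so it need not do so on the sense strand. Scaling to all transposon coverage and by median ratios moved the median element on Armi depletion from −4.30 to −0.06 and 0.03 (antisense) and from −3.13 to −0.08 and −0.02 (sense), and on flamenco silencing from −0.57 to 0.07 and 0.04 and from −0.13 to 0.48 and −0.07. The gypsy sense change on Armi depletion was then 3.31 and 3.39, with 94.7% and 96% of sense windows higher and 0% lower (0 of 75 also at an unadjusted p of 0.05, limma). The difference between the treatments was 0.025 and 0.079 (antisense) and 0.34 and −0.13 (sense). Gal4 against siLuc was 0.24 for antisense by median ratios and −0.28 and −0.59 for sense, and 2.67% of antisense windows were higher on Armi depletion by median ratios. With the median over positions the sense values were −0.36 (Armi depletion), 4.06 (flamenco silencing) and −0.67 (Gal4 against siLuc), and LTR against internal coverage on Armi depletion was 0.42 (antisense, against 0.32 with the mean, and 0.41 without the 35 nt beside the LTR borders) and −1.84 (sense, against −2.86). The causes of the other moves were not tested.

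A sense filter of 10 left 18 gypsy windows on Armi depletion, of which 66.7% were higher. Without the trend, 46.7% of sense windows rose on flamenco silencing and 14.7% of relative antisense windows rose on Armi depletion. Relative antisense windows on flamenco silencing that fell made up 2.67% with no filter, 0% without the trend and 4.70% with 50-nt windows, and those that rose 1.33% with a pseudocount of 0.1 or no filter, 9.33% with one of 10, 0% without the trend and 3.36% with 50-nt windows. Gaps below 5% and 20% of the mean took 0.509% and 3.68% (siLuc), 3.40% and 11.2% (siArmi) and 0.576% and 2.49% (Gal4), and below 20% 2.26% (Gal4-Panx-IDR).

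With 1 library left out, sense changes ranged from −0.58 to −0.35 on Armi depletion and from 0.27 to 0.34 for Gal4 against siLuc, where the value without siLuc replicate 3 passed the test (0.29, adjusted p = 0.0285). Antisense Gal4 against siLuc ranged from 0.87 to 1.13. Windows higher on the sense strand on flamenco silencing ranged from 0% to 41.3% (0% without either Gal4-Panx-IDR library), relative antisense windows higher on Armi depletion from 14.7% to 24%, and those on flamenco silencing from 0% to 8% lower and from 1.33% to 6.67% higher. Gaps in Gal4-Panx-IDR ranged from 0.696% to 1.10%.

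siLuc and siArmi share replicate numbers, but same-numbered libraries did not deviate together on both strands (Pearson r of −0.08, 0.02 and 0.23 antisense, and 0.31, −0.18 and 0.36 sense), and not every library correlated best with its own number. With the number as a replicate block, antisense and sense changes on Armi depletion were −5.09 and −0.47, with 33.3% of sense windows lower and 21.3% higher, and no call on gypsy as a whole changed. Depth limits the sense values of the Gal4 libraries most, with at least 216 and 292 reads.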
